A study of Mus musculus with 6 samples.

Results

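Described here are 9 genes of the basement membrane in clones of 4T1, a mouse mammary carcinoma line of the BALB/C strain. They were picked by symbol from the 19179 genes in the deposited files, and all were found: Col4a1, Col4a2, Lamc1, Lamb1, Lama5, Lama3, Lamb3, Nid1 and Hspg2. They were proposed with the difference between the 2 kinds of clone already known, so their values, and the counts of them that pass a threshold, describe that choice and support nothing. Single 4T1 cells were seeded in 96-well plates in complete RPMI-1640 and grown for 14 days, with no treatment named. Messenger RNA was sequenced in 6 libraries. For 3 of them the tissue label reads "breast cancer stem cell", and their clones are called stem-labelled below. The tissue label of the remaining 3 is "breast cancer cell", and theirs are called the other clones. Clones of each kind were picked at random, 10 at a time, in batches from 3 independent experiments. By what criterion clones were sorted into kinds, whether a library pools clones, and which libraries share an experiment is not stated, so the spread between libraries may be partly technical.

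Basement membranes are thin sheets of extracellular matrix under epithelia and around vessels. Type IV collagen chains, wound as triple helices, form one network, and laminins, each a heterotrimer of an alpha, a beta and a gamma chain, form another. Nidogens and the heparan sulfate proteoglycan perlecan tie the networks together. The laminin made of the Lama5, Lamb1 and Lamc1 products is found in most epithelial and vascular basement membranes. Laminin with the Lama3 and Lamb3 products anchors basal epithelial cells through integrin alpha 6 beta 4. Carcinoma cells make and cross such sheets during invasion.

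Col4a1 (ENSMUSG00000031502) and Col4a2 (ENSMUSG00000031503) lie head to head on mouse chromosome 8 and are read outward from a common start region. RefSeq places the first base of Col4a1 at 11312826 on the minus strand and that of Col4a2 at 11312805 on the plus strand (GRCm38), so the annotated transcripts overlap by 22 bases. The 30 bases around these starts, chr8:11312801-11312830, are shown because both chains begin in them, with capitals for the stretch between the starts. Each start also has a CCAAT sequence before it, 32 bases upstream for Col4a2 (chr8:11312761-11312790, plus strand) and 145 bases upstream for Col4a1 (chr8:11312954-11312983, minus strand, where it reads ATTGG). Capitals mark it.
Col4a1 and Col4a2 starts: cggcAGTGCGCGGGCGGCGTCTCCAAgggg
Col4a2 CCAAT: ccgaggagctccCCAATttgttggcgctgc
Col4a1 CCAAT: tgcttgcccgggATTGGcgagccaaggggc

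RefSeq promoters, spanning 250 bases before to 50 after a start, were at hand for 7 of the 9 genes. Promoters of 4 genes are shown without the bases that belong to annotated exons, for 3 genes with more transcript in the stem-labelled clones (Lamb1, Lama5 and Hspg2) and for Lamb3, which had less on the deposited scale. Capitals mark GGGCGG, the GC box, or CCAAT, either on both strands. The positions are chr12:31265043-31265233 for Lamb1 (plus strand), chr2:180225860-180226109 for Lama5 (minus strand), chr4:137468553-137468768 for Hspg2 (plus strand) and chr1:193301744-193301992 for Lamb3 (plus strand). The RefSeq start used for Lamb3, 193301994, lies inside the gene model of the files, which runs from 193207699 to 193343878. Its sequence is therefore not from the start of the model whose RPKM is given.
Lamb1 promoter: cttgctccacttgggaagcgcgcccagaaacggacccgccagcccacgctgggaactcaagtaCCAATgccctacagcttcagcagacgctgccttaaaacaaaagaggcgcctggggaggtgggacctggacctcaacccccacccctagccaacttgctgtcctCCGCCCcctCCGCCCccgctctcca
Lama5 promoter: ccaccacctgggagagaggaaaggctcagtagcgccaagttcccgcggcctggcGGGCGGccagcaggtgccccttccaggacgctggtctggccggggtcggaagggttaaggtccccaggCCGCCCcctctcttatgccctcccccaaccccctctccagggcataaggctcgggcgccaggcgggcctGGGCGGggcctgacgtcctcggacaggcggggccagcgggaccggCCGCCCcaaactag
Hspg2 promoter: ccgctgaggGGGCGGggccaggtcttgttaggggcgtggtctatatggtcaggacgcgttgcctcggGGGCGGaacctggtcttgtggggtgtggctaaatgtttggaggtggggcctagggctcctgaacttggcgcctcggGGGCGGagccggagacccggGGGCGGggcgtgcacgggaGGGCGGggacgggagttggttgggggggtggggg
Lamb3 promoter: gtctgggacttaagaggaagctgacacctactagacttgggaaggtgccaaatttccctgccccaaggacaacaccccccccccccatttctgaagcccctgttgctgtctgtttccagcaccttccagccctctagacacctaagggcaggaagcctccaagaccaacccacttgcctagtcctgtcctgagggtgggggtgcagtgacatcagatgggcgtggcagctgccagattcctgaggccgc

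Over the full windows GGGCGG occurred 5 times for Hspg2, 4 times for Lama5, 3 times for Col4a2, 2 times for Lamb1 and 1 time each for Col4a1 and Nid1. The Col4a1 match is also 1 of the 3 for Col4a2, since their windows overlap, and it lies after both starts. Neither of the 2 Lamb3 windows held GGGCGG, nor CCAAT. Of all 32851 RefSeq promoter windows, 35.7% held GGGCGG and 37.4% held CCAAT. None of the 7 genes had TATAAA, found in 13.6% of windows, or CACGTG, found in 7.15%. These are matches of letters and say nothing of which factors bind.

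Levels are in RPKM, reads per kilobase of gene and scaled to the authors' library total, as means ± SD with n = 3 libraries per group. Changes are differences of mean log2(RPKM + 1), stem-labelled minus other, ± SE from limma. A gene is called where its adjusted p is under 0.05 in the limma fit across the 10097 genes with at least 1 RPKM in at least 3 libraries. Reads in genes numbered 21196572 to 22838870 per stem-labelled library against 15357608 to 16830762. These sums came to 0.658 to 0.757 of the authors' total in the first and to 1.23 to 1.53 of it in the second, so the scale itself differs between the groups. Rescaling to reads in genes moves the median change of all tested genes from 0.11 to 0.86, with 5926 genes called higher and 1245 lower in place of 3014 and 2563. Changes also follow gene length, with a median of -1.17 in the tested genes of 57 to 1075 bases and 0.71 in those of 8322 to 38847 bases, and a correction for length and GC content was therefore run. The 9 genes are long, from 6046 to 14307 bases, and tested genes of that length had a median change of 0.64, or 0.02 after the correction. How far length, GC content or the scale contribute to any single gene was not tested.

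Of the 9 genes, 8 passed the filter on low values, and Lama3 passed it through the other clones alone. Among the 8, 6 were called higher in the stem-labelled clones (29.9% of all tested genes, 53.8% of those of 6046 to 14307 bases), 1 was called lower (25.4% and 7.38%) and 1 was not called. Either call was made for 55.2% of all tested genes and 61.2% of those of that length. All 3 stem-labelled libraries lay above the others for 6 of the 8 (35.7% of tested genes) and below them for 2 (27.8%). Their median change was 1.80, against 0.11 for all tested genes. After the correction 5 were called higher (25.8% of tested genes) and 2 lower (22%), with a median of 1.35. On rescaling 6 were higher (58.7%) and 1 lower (12.3%), with a median of 2.70. These counts restate how the genes were proposed. In bulk RNA, a larger share of cells making a transcript and more transcript per cell cannot be told apart.

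**Figure D1:**
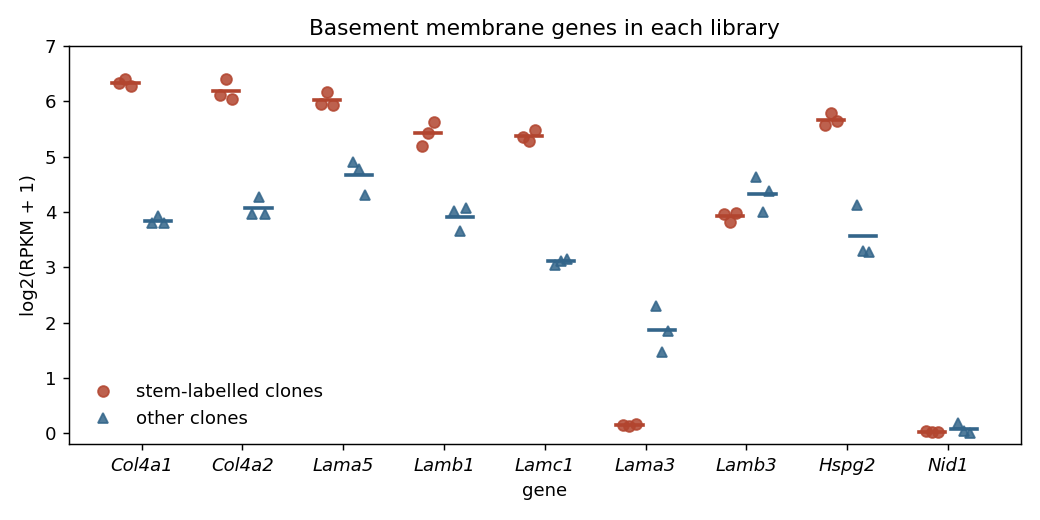
Level of each of the 9 genes as log2(RPKM + 1) in the 3 stem-labelled libraries (circles) and the 3 other libraries (triangles), with the group mean as a line. Col4a1, Col4a2, Lama5, Lamb1, Lamc1 and Hspg2 lie higher in every stem-labelled library, Lama3 and Lamb3 lie lower, and Nid1 is near 0 in both groups.

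The type IV collagen chains were the most abundant of these transcripts per length, by the authors' gene lengths, in the stem-labelled clones. Col4a1 encodes the alpha 1 chain and stood at 79.4, 83.8 and 76.3 RPKM in stem-labelled replicates 1, 2 and 3, and at 12.9, 14.2 and 12.9 RPKM in the same order of the other clones. The lowest stem-labelled library lay far above the highest other library, and the libraries within a group were close, with a coefficient of variation of 4.75% and 5.85%. The means, 79.8 ± 3.79 and 13.3 ± 0.781 RPKM, differed 5.98-fold (11.4-fold on rescaling), a change of 2.50 ± 0.20, or 2.35 after the length and GC correction. Col4a2 encodes the alpha 2 chain that joins alpha 1 in the common form of the protomer. It measured 68.3, 84.0 and 65.0 RPKM against 14.6, 18.3 and 14.5 RPKM. The means were 72.4 ± 10.1 and 15.8 ± 2.13 RPKM, a 4.59-fold difference (8.68-fold on rescaling) and a change of 2.13 ± 0.22, or 2.23 after the correction.

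Within a library the chains stayed close to each other. The ratio of Col4a2 to Col4a1 in RPKM was 0.905 ± 0.0840 in stem-labelled clones against 1.18 ± 0.0877, so Col4a1 gained slightly more. The groups did not overlap in this ratio, whose lowest other value was 1.13, while in the stem-labelled clones Col4a1 led in replicates 1 and 3 and equalled Col4a2 in replicate 2. In both groups replicate 2 had the highest level of each chain. The log2 ratio of Col4a1 to Col4a2 differed between the groups by 0.39 ± 0.10, and the difference of the corrected changes was 0.12.

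The remaining chains of the family contributed little. Col4a5, the chain mutated in X-linked Alport syndrome, rose from 0.473 ± 0.199 to 2.08 ± 0.566 RPKM (limma, 1.06 ± 0.20, adjusted p = 0.00210), with no overlap between libraries. It was below 1 RPKM in every other library and passed the filter on low values through the stem-labelled ones alone, so the test was bound to favour a difference. After the correction its change was 0.25 and was not called. Summed over the libraries of a group, Col4a6 had 209 reads in stem-labelled clones against 15, Col4a4 had 9 against 3 and Col4a3 had 2 against 0. These 3 were not tested. Together Col4a1 and Col4a2 took nearly all RPKM of the family, Col4a5 holding 1.34 ± 0.272% and 1.64 ± 0.780% of the sum. That sum was 155 ± 14.4 against 29.7 ± 2.76 RPKM.

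Laminin transcripts differed in make-up between the kinds of clone, and Lamc1 differed most evenly. Lamc1 encodes gamma 1, the gamma chain of most laminins, and stood at 40.0, 38.0 and 43.5 RPKM in the stem-labelled libraries against 7.22, 7.67 and 7.90 RPKM in the others. The gap between the groups was many times the spread within either, with means of 40.5 ± 2.77 and 7.60 ± 0.345 RPKM. This was a 5.33-fold difference (10.3-fold on rescaling) and a change of 2.27 ± 0.19, or 1.48 after the correction. Lamc3, which encodes gamma 3, had 9 reads over the stem-labelled libraries and 22 over the others.

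The beta chains differed unequally. Lamb1 encodes beta 1, the partner of gamma 1, and measured 35.7, 42.1 and 48.3 RPKM in the stem-labelled libraries against 15.1, 11.5 and 15.7 RPKM. The groups did not overlap, and the means of 42.1 ± 6.30 and 14.1 ± 2.26 RPKM differed 2.98-fold (5.82-fold on rescaling), a change of 1.51 ± 0.22. After the correction the change was 0.60 and was not called. Lamb3 encodes beta 3, which pairs with alpha 3, and stood at 14.7, 13.2 and 14.8 RPKM against 23.8, 14.96 and 19.7 RPKM. Its highest stem-labelled library, replicate 3, lay just below its lowest other library, replicate 2. The change was -0.41 ± 0.22 and was not called. It became -0.73 after the correction, where it was called lower, and turned to 0.48 on rescaling, not called. Lamb2, the beta 2 chain, rose from 5.30 ± 2.55 to 13.4 ± 2.33 RPKM (limma, 1.28 ± 0.32, adjusted p = 0.00809; 1.33 after the correction).

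Shares within a class do not depend on the scale of a library, though they do depend on the authors' gene lengths. Of the beta chain RPKM, Lamb1 took 60.2 ± 1.75% in stem-labelled clones against 36.6 ± 4.50%. Lamb3 took 20.6 ± 2.96% and 49.8 ± 3.11%. In both cases the groups did not overlap, the closest values being 58.4 and 41.5% for Lamb1 and 24.0 and 46.2% for Lamb3. The share of Lamb2 was 19.2 ± 1.64% against 13.7 ± 6.16%, with overlap. The ratio of Lamb3 to Lamb1 went from 1.37 ± 0.173 in the other libraries to 0.343 ± 0.0589 in the stem-labelled ones. The difference between the changes of Lamb1 and Lamb3 was 1.92 as deposited, 1.93 on rescaling and 1.33 after the correction.

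Among alpha chains, Lama5 prevailed in every library. Lama5 encodes alpha 5, the alpha chain of most adult epithelial basement membranes, and measured 60.8, 71.2 and 60.1 RPKM against 28.8, 26.4 and 18.7 RPKM. Every stem-labelled library was above every other one. The means were 64.0 ± 6.20 and 24.6 ± 5.28 RPKM, a 2.60-fold difference (4.93-fold on rescaling) and a change of 1.36 ± 0.24 (1.21 after the correction). Lama3 encodes alpha 3, the alpha chain of hemidesmosomal laminin, and stood at 0.108, 0.0951 and 0.119 RPKM against 3.90, 1.75 and 2.60 RPKM. The stem-labelled values rest on 33, 31 and 41 reads, and the others on 499, 234 and 281. The other clones had 25.6 times the mean level, or 13.1 times on rescaling, with means of 0.107 ± 0.0117 and 2.75 ± 1.08 RPKM. On the log2(RPKM + 1) scale, which shrinks changes of low genes, the change was -1.72 ± 0.22, and it was -2.71 after the correction.

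Lama3 accounted for 11.9, 6.20 and 12.2% of alpha chain RPKM in the other libraries and for 0.177, 0.133 and 0.197% in the stem-labelled ones. Lama1, Lama2 and Lama4 had at most 10 reads each per group and were not tested. Lama3 was far below its partner Lamb3 everywhere, at 0.138 ± 0.0240 of the Lamb3 level in the other libraries and 0.00753 ± 0.000428 of it in the stem-labelled ones. With the authors' gene lengths, Lamb1 and Lamc1 stood near parity in the stem-labelled libraries, at a ratio of 1.04 ± 0.126. In the others Lamb1 was above Lamc1, with a ratio of 1.86 ± 0.315.

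**Figure D2:**
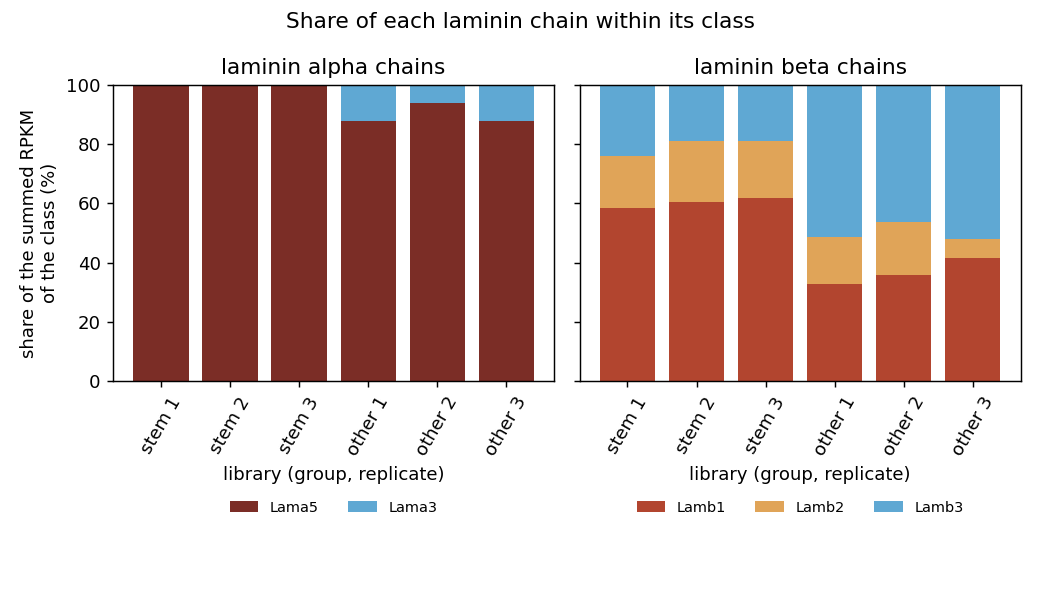
Share of each laminin alpha and beta chain in the summed RPKM of its class (percent, stacked bars) in the 6 libraries, with Lama1, Lama2 and Lama4 not drawn. Lamb1 takes 58.4 to 61.9% of the beta chains in the stem-labelled libraries and Lamb3 46.2 to 51.9% in the others, where Lama3 is visible among the alpha chains at 6.20 to 12.2%.

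Of the linker genes, one was abundant and one close to undetected. Hspg2 encodes perlecan and stood at 46.8, 54.0 and 48.8 RPKM against 16.4, 8.83 and 8.73 RPKM. The groups lay apart, and replicate 1 of the other clones was above its companions. The means of 49.9 ± 3.69 and 11.3 ± 4.42 RPKM differed 4.40-fold (8.47-fold on rescaling), a change of 2.10 ± 0.26 (1.93 after the correction). Nid1 encodes nidogen 1, which binds laminin gamma 1 and type IV collagen. Its reads numbered 4, 3 and 2 in stem-labelled replicates against 10, 2 and 0, at most 0.139 RPKM. A count of 0 in replicate 3 of the other clones allows up to 0.0493 RPKM (3 reads, counting error only). Nid2, the other nidogen, had 1 read over the stem-labelled libraries and 21 reads over the others, all of the latter in replicate 1. Neither nidogen could be compared at this depth.

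In the stem-labelled libraries the order of the genes per length, by the authors' gene lengths, was nearly fixed. Col4a1 and Col4a2 came first, followed by Lama5, Hspg2, then Lamc1 and Lamb1, then Lamb3, Lama3 and Nid1. The first and second places switched in replicate 2, where the collagen chains were level, and Lamb1 was above Lamc1 in replicates 2 and 3. In the other libraries Lama5 and Lamb3 led in replicates 1 and 3. Lama5 led in replicate 2 with Col4a2 next, and the last 3 places were always Lamc1, Lama3 and Nid1. Set among all tested genes by group mean, Col4a1 was above 94.9% of them in the stem-labelled and above 66.7% in the other clones. The same figures for Lamc1 were 89.0 and 54.7%, and for Lamb3 69.9 and 73.4%.

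**Figure D3:**
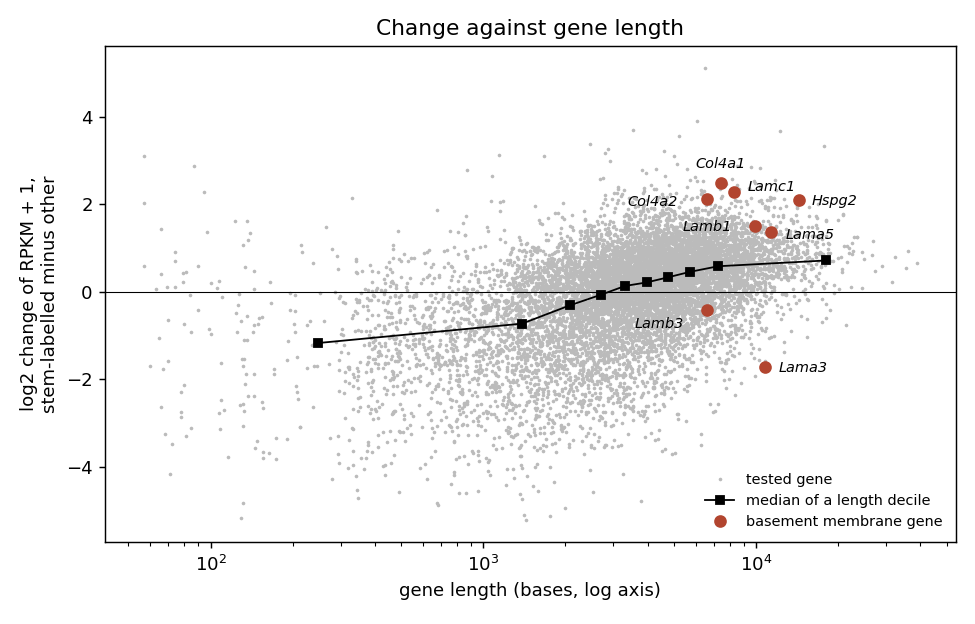
Change of log2(RPKM + 1), stem-labelled minus other, of each tested gene (grey points) against gene length in bases on a log axis, with medians of length deciles as squares, placed at the middle of a decile's range on the log axis. Col4a1 at 2.50, Lamc1 at 2.27, Col4a2 at 2.13 and Hspg2 at 2.10 lie above the medians, while Lamb3 at -0.41 and Lama3 at -1.72 lie below them, although all are long.

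The wider basement membrane was read from 44 genes in 4 lists (type IV collagens, laminins, nidogens with proteoglycans, and other components), of which 40 were in the files and 22 were tested. Outside the 9 genes, 14 were tested, and 7 rose, 3 fell and 4 were not called, with a median of 0.58 against 0.11 for all tested genes. These counts include Col4a5, which rose, and Vwa1, which fell. Each passed the filter on low values only through the group where it was high, so the filter favoured its call. The shares over all tested genes were 29.9% higher and 25.4% lower. The 14 genes run from 2521 to 10287 bases, with a median of 5923.5. Tested genes of 6046 to 14307 bases, a range that part of the 14 fall short of, had 53.8% higher, 7.38% lower and a median of 0.64. Beside that range the share that rose (50%) and the median are near, while the share that fell (21.4%) is larger. After the correction 5 rose and 2 fell, with a median of 0.39, and without replicate 3 of the stem-labelled clones 1 fell in place of 3. Among proteoglycans, Col18a1, the source of endostatin, rose by 1.07 ± 0.24 (limma adjusted p = 0.00474) to 76.8 ± 15.9 RPKM, and kept 1.15 after the correction. Agrn, which encodes agrin, rose by 0.91 ± 0.29 to 22.7 ± 4.76 RPKM (limma adjusted p = 0.0223). It was not called after the correction (0.54) or without replicate 1 or 2 of the stem-labelled or replicate 2 or 3 of the other clones (0.73 to 0.91), nor with no filter on low values.

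Among the other components, Pxdn, the peroxidase that crosslinks type IV collagen, rose from 3.06 ± 0.481 to 12.5 ± 0.893 RPKM (1.74 ± 0.19, 0.86 after the correction, still called). Sparc, a collagen-binding glycoprotein, rose by 0.85 ± 0.21 and Npnt, an integrin ligand called nephronectin, by 1.35 ± 0.34. Both had lower corrected changes, 0.55 for Sparc and 0.69 for Npnt, of which that of Npnt was not called. Vwa1, a partner of perlecan, fell by 0.89 (log2), to a mean of 0.428 ± 0.350 RPKM, and was not called on rescaling (-0.48). It was below 1 RPKM in every stem-labelled library and passed the filter through the other clones alone. Lad1, an anchoring filament protein, fell by 0.74 in log2 units (limma adjusted p = 0.0468). It was not called after the correction (-0.39), turned to 0.19 on rescaling, and was not called without any 1 library other than replicate 1 of the other clones (-0.84 to -0.50). Nor was it called with upper-quartile scaling (-0.48), with no filter on low values or with a replicate block. Col7a1, the collagen of anchoring fibrils, stood at 3.44, 4.56 and 3.25 RPKM against 30.7, 8.26 and 8.34 RPKM. Its groups did not overlap, and replicate 1 of the other clones was far above the rest. It fell by 1.57 on the log2 scale (SE 0.43, limma adjusted p = 0.0123), or by 1.63 after the correction. It was not called once stem-labelled replicate 3 was left out (-1.49), on rescaling (-0.76) or with no filter.

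**Figure D4:**
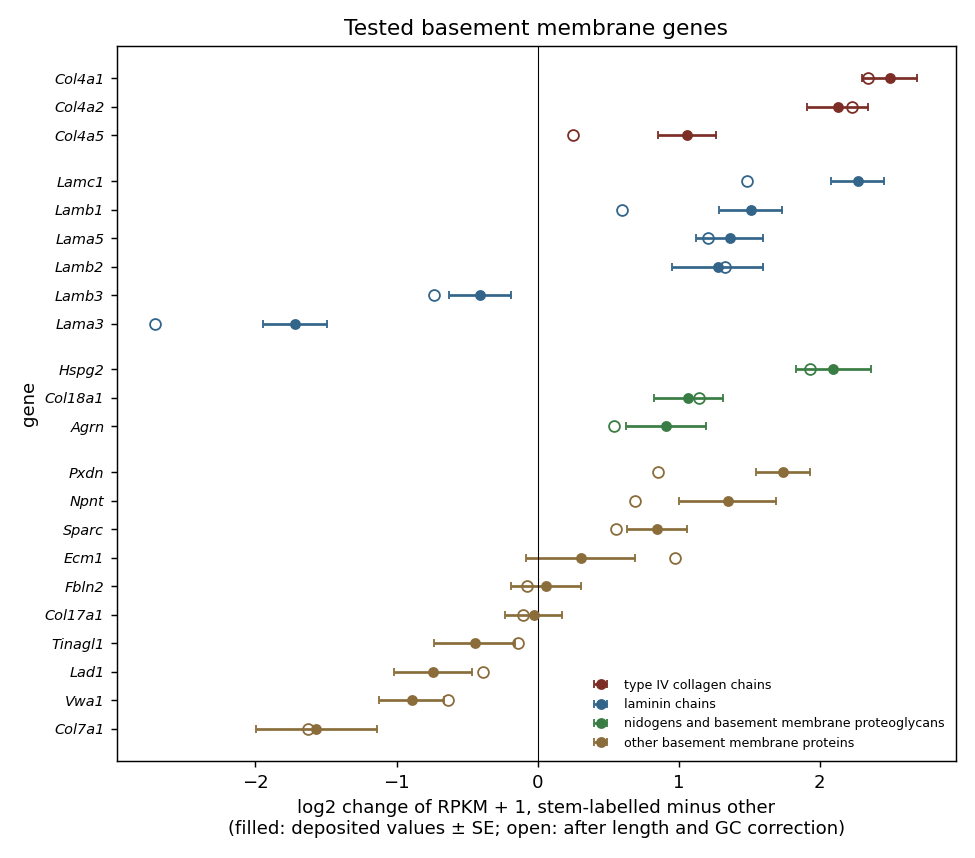
Change of log2(RPKM + 1), stem-labelled minus other, of 22 tested basement membrane genes as deposited (filled points, ± SE) and after the length and GC correction (open points), coloured by list. Changes run from 2.50 for Col4a1 to -1.72 for Lama3, and the laminins split into Lamc1, Lamb1, Lama5 and Lamb2 on the right and Lamb3 and Lama3 on the left.

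Genes that modify, fold and export collagen chains were mostly not called. Of 19 listed genes 14 were tested, and 4 rose, 1 fell and 9 were not called, with a median of 0.33. Of all tested genes 29.9% were higher and 25.4% lower, so the number that rose is near the background. P4hb, the protein disulfide isomerase that is also a subunit of prolyl 4-hydroxylase, rose from 84.6 ± 12.9 to 234 ± 8.25 RPKM (1.46 ± 0.24, the same after the correction at 1.46). P3h1, a prolyl 3-hydroxylase, rose by 1.28 ± 0.25, Mia3, an exporter of large cargo from the endoplasmic reticulum, by 0.91 ± 0.24, and Colgalt1, a collagen galactosyltransferase, by 0.78 ± 0.22. Colgalt1 was not called when stem-labelled replicate 1 (0.73) or replicate 3 of the other clones (0.68) was left out. Ppib, a proline isomerase, fell by 0.83 on the log2 scale, but its change was -0.08 after the correction and 0.10 on rescaling, neither called. Without replicate 2 or 3 of the stem-labelled clones 0 of the 14 fell in the limma fit, and without replicate 3 of the other clones 2 did. After the correction 7 rose and 1 fell.

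Receptors for laminin and type IV collagen had 4 higher, 1 lower and 10 not called of 15 tested out of 17, with a median of 0.42. The number higher is near the 29.9% of all tested genes and the number lower is under their 25.4%. Dag1 encodes dystroglycan, a laminin and perlecan receptor, and measured 52.7, 46.5 and 53.4 RPKM against 9.33, 9.95 and 10.6 RPKM, with libraries of a group close together. It rose by 2.24 ± 0.20 (limma adjusted p = 0.000117), or 1.56 after the correction. Itgb4, the integrin beta 4 chain of hemidesmosomes, rose from 12.9 ± 2.71 to 37.4 ± 9.01 RPKM (1.45 ± 0.25, 1.50 after the correction). Its partner Itga6 rose by 0.999 ± 0.239, but had a corrected change of 0.05. Ddr2, a collagen receptor kinase, rose by 0.78 ± 0.28 and had a corrected change of 0.05 as well. Without replicate 2 or 3 of the stem-labelled or 1 or 3 of the other clones its change was 0.46 to 0.86 and not called. With no filter on low values Ddr2 was not called either. Cd151, a tetraspanin bound to laminin-binding integrins, fell by 1.90 (log2), from 371 ± 106 to 97.9 ± 22.3 RPKM, or by 1.44 after the correction. Without replicate 2 of the stem-labelled or of the other clones 2 receptors fell in place of 1. The integrin chains Itga3, at 177 against 129 RPKM, and Itgb1, at 87.0 against 61.2 RPKM, were not called on the deposited scale but were on rescaling (1.40 and 1.36).

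Proteases that act on basement membranes went both ways, with 3 higher, 3 lower and 2 not called of 8 tested out of 13 and a median of 0.38, beside 29.9% higher and 25.4% lower of all tested genes. Mmp14, a membrane-bound protease, stood at 35.2, 55.6 and 39.0 RPKM against 6.25, 5.79 and 11.4 RPKM and rose by 2.35 ± 0.29 (limma adjusted p = 0.000254, 2.12 after the correction). Mmp9, a gelatinase that cuts type IV collagen, stood at 2.09, 2.51 and 1.13 RPKM against 20.3, 21.2 and 20.3 RPKM. It fell by 2.92 on the log2 scale (SE 0.23, limma adjusted p = 0.000109), or by 2.90 after the correction. Neither gene's groups overlapped. Mmp15 stood at 0.405, 1.70 and 0.754 RPKM in the other clones and rose by 1.07 ± 0.25. Its stem-labelled libraries alone were enough to pass the filter on low values. Bmp1, which trims laminin chains and procollagens, rose by 0.87 ± 0.23, while Mmp10 fell by 2.27 and Mmp13 by 1.25 on the log2 scale. The groups of Mmp13 overlapped, and it was not called after the correction (-0.78), on rescaling (-0.63), or without any 1 library other than replicate 3 of the other clones (-1.39 to -0.69). Nor was it called with upper-quartile scaling (-1.08) or with no filter on low values.

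Interstitial collagens gave a contrast in level. Of 15 genes, 12 were in the files and 3 were tested, and these 3 rose, beside 29.9% of all tested genes and 53.8% of those of 6046 to 14307 bases. The 3 run from 4380 to 8490 bases, and Col6a1, the shortest, falls short of that range. Col16a1 rose from 7.38 to 23.8 ± 2.85 RPKM (1.58 ± 0.22) and Col6a1 from 5.47 to 13.5 ± 4.28 RPKM (1.20 ± 0.33). Col5a1 stood at 0.385, 0.549 and 1.08 RPKM in the other clones and rose to 6.08 ± 1.95 RPKM (2.07 ± 0.25). Its stem-labelled libraries alone were enough to pass the filter on low values. The Col6a1 call did not hold with stem-labelled replicate 2 left out (0.99). Col1a1, the major fibrillar collagen of fibroblasts, was at most 0.0854 RPKM in any library. Markers of other cell types were mostly below 1 RPKM, with Krt14, Cd68, Tie1 and Pdgfra above it in some libraries. Of 7 endothelial markers 4 were in the files, and their sum was 0.0423 to 0.128 RPKM in stem-labelled libraries against 0.405 to 2.89 RPKM, the latter mostly Tie1 (0.392 to 2.85 RPKM). The 3 listed fibroblast markers summed to 1.67 to 3.38 against 0.396 to 1.01 RPKM, nearly all of it Pdgfra, with Dcn at 0 in 5 of the 6 libraries. Of 5 listed myoepithelial markers 4 stayed below 1 RPKM everywhere, the exception being Krt14, and the sum was 0.0743 to 0.416 against 6.44 to 59.5 RPKM. Of 4 listed macrophage and leukocyte genes 3 were below 1 RPKM everywhere, and the sum, nearly all Cd68, was 12.3 to 39.9 against 6.09 to 29.3 RPKM. Markers of 4T1 carcinoma cells summed to 935 to 1444 against 2298 to 3888 RPKM as deposited, with Krt8 and Krt18 leading. Mean Krt18 was 420 against 1480 RPKM, Krt7 36.7 against 213, Krt19 4.40 against 57.7 and Cldn4 7.72 against 175. Cldn7 was at 0.0983 against 10.0 RPKM, the latter mostly from replicate 3. Krt8 was at 648 against 1220 RPKM, but level on rescaling (1.01-fold). Epcam stood at 55.2 against 56.2 RPKM as deposited and was 1.90-fold higher in the stem-labelled clones on rescaling. Cdh1 stood at 68.9 against 15.99 RPKM. The part of these differences in the results above was not tested.

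The genes most like Col4a1 over the 6 libraries were found by the root mean square difference of centred log2(RPKM + 1) profiles among 5949 other tested genes with a mean of at least 5 RPKM. The nearest were Extl3 (0.0958), Bace1 (0.136), Zcchc14 (0.137), Angptl2 (0.141) and Lamc1 (0.155). Col4a2 was the 25th nearest at 0.207 and Hspg2 the 96th at 0.363. For Lama3, among 9911 genes with a mean of at least 1 RPKM, the nearest were Hist4h4, Gpatch3, 2410131K14Rik, Taf5 and Gm8332, at 0.101 to 0.140. The log2(RPKM + 1) scale shrinks changes of low genes, so near genes can differ in fold. Lama3 stood at 0.107 RPKM in stem-labelled against 2.75 RPKM in other clones. Hist4h4 was at 0.0858 against 2.40 RPKM, but Gpatch3 was at 3.64 against 13.3 RPKM. Lamb3 was the 2238th nearest to Lama3. The profiles include the difference between the groups, so a like change follows from this choice.

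The gene models bear on the levels. RPKM divides by the authors' gene length, 9917 bases for Lamb1, whose longest coding transcript in GENCODE M21 has 5784. For Lamb3 the lengths are 6612 and 4867 bases, and for Lamc1 8272 and 7622. Levels, shares, ratios and orders across genes rest on the authors' lengths. How other lengths would move them was not tested. The 9 genes have 20 exons (Nid1) to 97 exons (Hspg2) in their longest coding transcript of GENCODE M21. The largest overlap of 1 exon with an exon of another gene is 22 bases for Col4a1, 43 for Col4a2, 197 for Lama3 and 143 for Nid1. Each of these other genes is on the opposite strand. The bases overlapped in total were not counted. The strand used in counting is not given in the sources used here. No exon of another gene overlaps those of Lamc1, Lamb1, Lama5, Lamb3 or Hspg2. The remaining positions in the files are chromosome 1, 153218922 to 153332786 for Lamc1, chromosome 12, 31265234 to 31329644 for Lamb1, chromosome 2, 180176373 to 180225859 for Lama5, and chromosome 4, 137468769 to 137570630 for Hspg2.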

How the data were processed

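The deposited files, 1 per library, give RPKM made by the authors, with gene identifiers, coordinates and a gene length. The submitters' processing notes name Bowtie2 2.0.6, TopHat2 2.0.9 and mm9 without their roles; the counter and the strand are not given in the sources used here. Of the identifiers, 99.6% were in GENCODE M21 and of the matched ones 80.5% agreed in both coordinates with GRCm38, so coordinates are on GRCm38. Multiplying RPKM by length gave whole multiples of 1 step per library for 100% of values above 0 (tolerance 0.01), from which reads and library totals were recovered.

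Groups came from the tissue labels. limma 3.58.1 (R 4.3.3) was fitted with a variance trend to log2(RPKM + 1) of 10097 genes that reached 1 RPKM in 3 or more of the 6 libraries (9082 removed), with two-sided tests and Benjamini-Hochberg adjustment over all of them. An exact permutation test of 3 against 3 libraries cannot go below 0.1. The length and GC correction subtracts, per library, a fit of deviations from gene means on splines (5 degrees of freedom each; GC known for 99.9%). Data were simulated for 10097 genes, with 100 changed 2-fold and 100 changed 4-fold. Dispersion was fixed, with no trend with length or GC content and no difference of scale between groups. In them 46% of 2-fold changes and 100% of 4-fold changes were recovered, and 19 unchanged genes passed. The deposited values do have such a trend and difference, so these figures are not error rates for them. Other settings were upper-quartile scaling, rescaling to reads in genes, 2 other filters, a pseudocount of 0.1, limma-voom on the reads, a replicate block and leaving out each library.

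The genes, lists and settings were chosen with earlier results of these data known. Beside the 9, up to 4 called genes with the smallest p were named from long lists, any tested chain from families, and the 5 genes most like Col4a1 and Lama3. Col7a1, Lad1, Ppib, Ddr2, Itga3, Itgb1, Bmp1, Mmp13, Col1a1 and the cell markers were named with their values in view. Sequences are from RefSeq (GRCm38.p6). Lamc1 and Lama3 are named without one. An item of the lists is not reported here and was left out of their counts.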

Additional observations from a re-analysis of the deposited data

How the results depend on the processing

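The 9 genes were proposed from this difference, so how they fare under other settings is a description and no support. Over 15 settings the changes of Col4a1, Col4a2, Lamc1, Lama5 and Hspg2 were 2.35 to 3.39, 2.02 to 3.03, 1.48 to 3.14, 1.18 to 2.27 and 1.93 to 2.98. That of Lama3, which passed the filter through the other clones alone, was -4.59 to -1.34 over 14 settings, and a filter of mean RPKM at least 5 removed it. Lamb1 was lowest after the correction (0.60), where it was not called. Lamb3 changed sign on rescaling to reads in genes (0.48), as did Ppib (0.10) and Lad1 (0.19). Rescaling gave 5926 genes higher and 1245 lower; a filter of mean RPKM at least 5 gave 1405 higher. Leaving out 1 library gave 2539 to 3027 higher and 2184 to 2528 lower.

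Among basement membrane genes outside the 9, the number higher was 3 under block and correction combined, and the number lower was 0 on rescaling, 1 with no filter and 1 with the block and the correction, with 6 to 7 higher and 1 to 3 lower without 1 library. For collagen modification genes the number higher was 7 with upper-quartile scaling, 9 on rescaling, 2 with the filter at 5 and 7 after the correction, and the number lower was 0 on rescaling, with ranges of 3 to 6 and 0 to 2 without 1 library. For receptors the number higher was 7 with upper-quartile scaling and 10 on rescaling, with 3 to 4 higher and 1 to 2 lower without 1 library. For proteases 5 were higher on rescaling, with 3 to 4 higher and 2 to 3 lower without 1 library. Interstitial collagens had 2 to 3 higher and 0 lower without 1 library. The causes were not tested, except that a stricter filter tests fewer genes. Same-numbered libraries did not deviate together (correlations of -0.125, 0.026 and -0.085 over 10097 genes). None of the stem-labelled libraries correlated best with its own number. The number was therefore treated as a name. Deviations from a mean of 3 libraries are tied to each other, so these correlations cannot tell whether same-numbered libraries share an experiment. A replicate block gave 2735 higher and 2477 lower.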
